A study of Mus musculus with 20 samples.

Results

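The genes described are those of cholesterol synthesis, uptake, esterification and export, 32 in all. They were chosen by name from the pathway's known steps. A probe set was found for 29 of them, among 18193 genes with a probe set of their own. Where a gene had several, the set with the highest mean log2 value stands for it. Acat2, Soat1 and Soat2 are not analysed here. Together the 29 genes have 62 of the 45037 probe sets tested.

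The study compared livers with and without Scd1, which encodes the desaturase that makes monounsaturated fatty acids, on a diet with very little fat and on chow. RNA from individual livers was hybridized to 20 Mouse 430 2.0 arrays, 1 liver each. There were 5 livers from Scd1-/- mice (knockout) on a very-low-fat, high-carbohydrate diet (VLF, Harlan Teklad TD03045), 5 from Scd1+/+ mice (wild type) on the same VLF diet, 5 from Scd1-/- mice on chow and 5 from Scd1+/+ mice on chow. The sources used here do not give the strain, age, sex, feeding time or length of diet, nor whether the deletion reaches every tissue. Every value is a normalized probe set intensity on a linear scale, livers carry the replicate numbers 1 to 5 of the labels, and each probe set is compared between livers.

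Cholesterol is built from acetyl-CoA by way of mevalonate, the isoprenoid diphosphates and squalene, and the liver both makes it and disposes of it, as bile salts, in bile and in lipoproteins. Transcription of most of the enzymes is driven by SREBP2, a membrane-bound factor that Scap escorts to the Golgi for cleavage and that Insig proteins retain in the endoplasmic reticulum when sterols are plentiful. The exporters Abca1, Abcg5 and Abcg8 answer instead to the oxysterol receptors LXR, so in textbook terms sterol excess lowers synthesis genes and raises exporter genes.

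Promoter sequences of 7 stretches are shown to set the members' shared promoter letters beside their values. Sequences are RefSeq's (build GRCm38.p6), written 5′ to 3′ on the gene's own strand, and each of the first 6 holds the 250 bases before the transcription start. Capitals mark 2 motifs on either strand: TCACNCCAC, an element of the type SREBPs bind, and CCAAT, which reads ATTGG on the other strand. Hmgcs1 (chr13:119690101-119690350, plus strand), an early enzyme of the route, was the only one of the 23 members scanned with a TCACNCCAC match, 137 bases before its start. Idi1 (chr13:8885356-8885605, plus strand), Tm7sf2 (chr19:6067851-6068100, minus strand), Ebp (chrX:8193513-8193762, minus strand), Sc5d (chr9:42264301-42264550, minus strand) and Insig1 (chr5:28071162-28071411, plus strand) are members that were lower in knockout than in wild-type livers on the VLF diet. The last sequence is the whole interval of 109 bases between the divergent starts of Abcg5 and Abcg8 (chr17:84683012-84683120, plus strand), shown because Abcg8 was called lower there and Abcg5 was not. A further listed start of Abcg8, at base 84676302, lies inside Abcg5.
Hmgcs1: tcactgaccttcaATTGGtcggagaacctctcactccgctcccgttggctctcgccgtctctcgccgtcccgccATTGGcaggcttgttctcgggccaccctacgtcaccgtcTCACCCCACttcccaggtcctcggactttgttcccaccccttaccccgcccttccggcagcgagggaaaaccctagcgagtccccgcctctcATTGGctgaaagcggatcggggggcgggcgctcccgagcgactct
Idi1: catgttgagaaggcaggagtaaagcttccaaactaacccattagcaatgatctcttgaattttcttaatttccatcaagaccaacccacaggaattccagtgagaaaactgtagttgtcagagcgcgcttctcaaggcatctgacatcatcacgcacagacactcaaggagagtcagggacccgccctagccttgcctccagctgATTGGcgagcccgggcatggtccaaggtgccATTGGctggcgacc
Tm7sf2: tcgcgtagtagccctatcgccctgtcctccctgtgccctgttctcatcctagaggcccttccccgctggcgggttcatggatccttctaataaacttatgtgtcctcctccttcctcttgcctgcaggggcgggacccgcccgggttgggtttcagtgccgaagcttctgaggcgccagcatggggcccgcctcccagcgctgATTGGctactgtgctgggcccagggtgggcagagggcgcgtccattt
Ebp: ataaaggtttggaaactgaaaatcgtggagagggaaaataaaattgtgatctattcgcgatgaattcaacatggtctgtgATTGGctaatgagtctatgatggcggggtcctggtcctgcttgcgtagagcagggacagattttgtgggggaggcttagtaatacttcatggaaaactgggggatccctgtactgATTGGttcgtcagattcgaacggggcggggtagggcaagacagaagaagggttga
Sc5d: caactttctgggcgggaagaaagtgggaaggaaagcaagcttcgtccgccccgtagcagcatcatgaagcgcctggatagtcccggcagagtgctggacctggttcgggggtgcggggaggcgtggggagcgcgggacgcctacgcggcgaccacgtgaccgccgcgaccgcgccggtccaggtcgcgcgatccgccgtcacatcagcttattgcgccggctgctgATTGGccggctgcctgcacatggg
Insig1: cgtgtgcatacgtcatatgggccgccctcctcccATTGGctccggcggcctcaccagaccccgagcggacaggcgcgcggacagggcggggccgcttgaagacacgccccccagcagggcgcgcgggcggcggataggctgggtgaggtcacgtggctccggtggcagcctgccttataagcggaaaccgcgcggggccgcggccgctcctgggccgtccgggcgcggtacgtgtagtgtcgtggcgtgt
Abcg5 to Abcg8: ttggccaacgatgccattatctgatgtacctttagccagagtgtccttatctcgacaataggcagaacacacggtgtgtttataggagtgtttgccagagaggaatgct

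Of the 29 measured members 23 were scanned, those with a promoter in the RefSeq table outside chromosome 18. Stard4 and Npc1, which lie on chromosome 18 and were both called lower, were thus not scanned. The shares of all genes and promoters were not limited in this way. Some genes have several promoters there, and a gene counted where any of them held the motif. CCAAT lay in 20 of the 23, against 37.5% of all 27025 genes counted the same way (per promoter, 20 of 28 against 33.8% of all 32851). It was in 10 of the 11 scanned members that fell and in 9 of the 10 scanned that were not called. With nearly all of them holding it, its presence could not separate these members by their response. GGGCGG, the GC box, lay in 18 of 23 (35.4% of all genes, 32.7% of all promoters). TCACNCCAC lay in 1 of 23 (1.22% of all genes, 1.05% of all promoters), and the LXR-type direct repeat, AGGTCA repeated after a gap of 4 bases, in 0 of 23 (0.0148% of all genes, 0.0152% of all promoters). Overlapping matches were counted on both strands, and a match or its lack describes only the letters of this window.

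The tissue and genotype labels were matched by the arrays. Scd1 signal was 27.2 to 37.0 in knockout livers on the VLF diet, against 16897 to 20407 in wild-type livers on that diet, and 29.2 to 58.0 in knockout livers on chow, against 6479 to 10361 in wild-type livers on chow. The summed signal of 7 hepatocyte markers, with none at the floor, was 86481 to 91264 in knockout and 88218 to 92977 in wild-type livers on the VLF diet. Deposited array medians were 32.25 to 36.58. Between any 2 arrays of a group the average absolute log2 difference was 0.106 to 0.199, and no 2 arrays were identical. In some livers the measured synthesis enzymes stood apart together: wild-type VLF liver 4 was the highest of its group for 18 of 18, and knockout VLF liver 2 and knockout chow liver 2 were the lowest of theirs for 13 and 15 of 18. The counts of calls are also given without the VLF pair. In bulk liver, fewer cells of a type and less RNA per cell cannot be told apart.

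On the VLF diet, 14 of 29 cholesterol genes were lower in knockout than in wild-type livers, 3 were higher and 12 were not called. The 17 called passed the test (limma, Benjamini-Hochberg adjusted p under 0.05 over all probe sets), beside 42.2% of all genes. Lower were 14 (23% of all genes), namely Pmvk, Idi1, Fdft1, Tm7sf2, Ebp, Sc5d, Srebf2, Scap, Insig1, Stard4, Npc1, Lcat, Abcg8 and Pltp, and higher were 3 (19.2% of all genes), Ggps1, Scarb1 and Abca1. The median log2 change of the members was -0.52, against -0.02 over all genes. In 14 members every knockout liver lay below every wild-type liver (15.5% of all genes), and in 2 every knockout liver lay above (14.6%). Without knockout liver 2 and wild-type liver 4, an alternative chosen after seeing the data, 18 members were called, 15 lower and 3 higher (26.1% and 19.5% of all genes), and the members' median was -0.28. With arrays centred on the hybridization controls the median of all genes moved to 0.10 and that of the members to -0.16, with 10 lower and 3 higher (5.26% and 28% of all genes), and Srebf2 at 0.02.

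**Figure D1:**
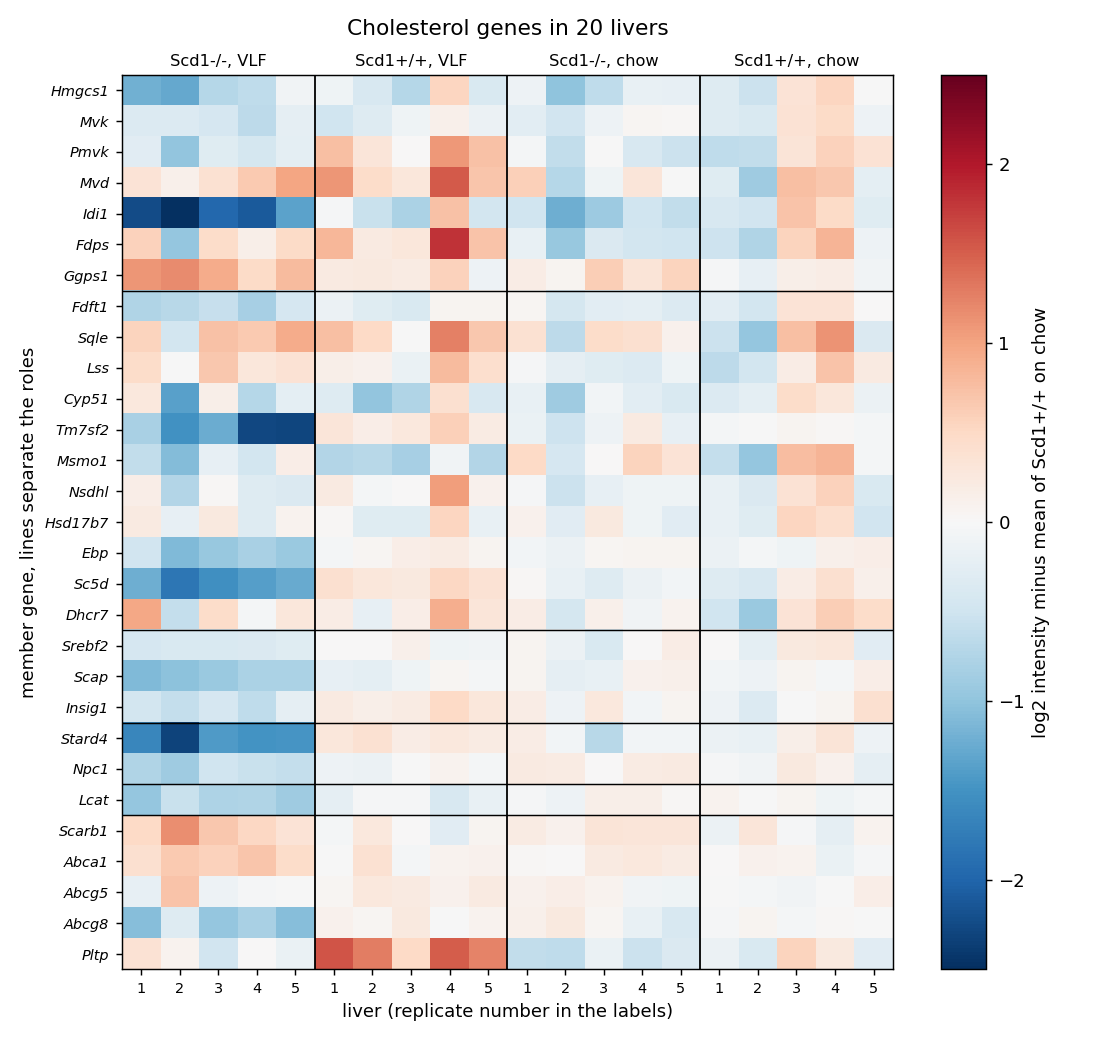
Heatmap of the 29 members in 20 livers (columns; 5 per group, replicate number below), as log2 intensity minus the mean of wild-type livers on chow, with rows grouped by role and colours saturating at the ends of the scale. The knockout livers on the VLF diet carry the darkest blue fields, led by Idi1, Tm7sf2, Sc5d and Stard4, while Scarb1 and Abca1 are red there.

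The mevalonate steps make the isoprenoid diphosphates, and 2 of 7 measured members fell while 1 rose, shares near the 23% and 19.2% of all genes. Idi1, the isopentenyl diphosphate isomerase, measured 233, 125, 283, 258 and 437 in knockout livers on the VLF diet, against 1076, 744, 637, 1832 and 797 in wild-type livers on that diet. It measured 781, 469.9, 589, 776 and 718 in knockout livers on chow and 834, 785, 1804, 1542 and 886 in wild-type livers on chow. The knockout livers lay below all wild-type livers on either diet, and wild-type VLF liver 4 was far the highest of its group. Idi1 was 3.81-fold lower in knockout livers under the VLF diet (log2 change ± standard error -1.93 ± 0.33, adjusted p = 0.000122), and on chow the difference of -0.75 ± 0.33 did not pass the test (adjusted p = 0.19).

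Pmvk, the phosphomevalonate kinase, measured 167, 103, 165, 150.5 and 171 in knockout livers on the VLF diet, against 345, 250.4, 204, 429.6 and 337 in wild-type livers on that diet. On chow it measured 197, 132, 202, 155 and 141 in knockout livers and 131, 133, 254, 305 and 261 in wild-type livers. The genotypes were apart on the VLF diet and overlapped on chow. Pmvk was 2.04-fold lower in the knockout on the VLF diet (-1.03 ± 0.25, adjusted p = 0.00321), a call that ended with arrays centred on the hybridization controls (-0.65, adjusted p = 0.0653).

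Ggps1 makes geranylgeranyl diphosphate, used to prenylate proteins rather than to make sterol, and it went the other way. It measured 129, 137, 114, 83.8 and 104 in knockout livers on the VLF diet, against 70.0, 70.9, 69.3, 89.5 and 54.9 in wild-type livers on that diet. It measured 68.0, 63.4, 91.9, 74.8 and 88.1 in knockout livers on chow and 59.3, 51.9, 66.3, 68.1 and 56.9 in wild-type livers on chow. On the VLF diet only knockout liver 4 reached into the wild-type range. The rise was 1.6-fold (0.68 ± 0.14, adjusted p = 0.000993), but its 4 probe sets disagreed: a second was called higher (0.58 ± 0.17, adjusted p = 0.0113), and the others were not called (0.21 ± 0.14 and -0.14 ± 0.12). The call ended without probe sets of the _s_at and _x_at kinds, which can read several transcripts (0.21, adjusted p = 0.304). It also ended with the log2 of the actin 3′ to 5′ ratio as a covariate (0.33, adjusted p = 0.186).

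The other 4 measured mevalonate enzymes were not called. Hmgcs1, the synthase before mevalonate, averaged 2376 ± 826 in knockout and 3531 ± 1289 in wild-type livers on the VLF diet (mean ± SD, n = 5 each), a log2 change of -0.57 (95% interval -1.13 to -0.01) with adjusted p = 0.116. Of its other 4 probe sets 2 were called lower, by -0.66 ± 0.25 (adjusted p = 0.047) and -1.08 ± 0.25 (adjusted p = 0.00258). Another had -0.64 ± 0.26 and was not called, and the last lay at the floor in 14 livers. Fdps, which makes farnesyl diphosphate, had a difference of -0.64 (95% interval -1.36 to 0.09). Mvk, the mevalonate kinase, and Mvd, a decarboxylase further on, had differences of -0.21 (95% interval -0.55 to 0.13) and -0.32 (95% interval -0.98 to 0.34). For Hmgcs1, Fdps and Mvd these intervals are wide enough to hold a fall of about the size seen in members that were called. That of Mvk holds the smaller of those falls, and its other probe set was called lower (-0.31 ± 0.09, adjusted p = 0.0084).

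From squalene to cholesterol 4 of 11 members fell and 0 rose, beside 23% and 19.2% of all genes. Tm7sf2, a sterol reductase, measured 776, 477, 573, 282 and 275 in knockout livers on the VLF diet, against 1684, 1531, 1639.7, 2047 and 1562 in wild-type livers on that diet. It measured 1209, 955, 1245, 1583 and 1187 in knockout livers on chow and 1306, 1356, 1433, 1397 and 1310.3 in wild-type livers on chow. Knockout livers on the VLF diet all lay below the other 15 livers, and among themselves spread more on the log2 scale than the livers of any other group. The fall on the VLF diet was 3.83-fold (-1.94 ± 0.22, adjusted p = 1.04e-06), beside -0.16 ± 0.22 on chow (adjusted p = 0.865).

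Sc5d, the desaturase of lathosterol, measured 1316, 874, 1063, 1180.2 and 1285 in knockout livers on the VLF diet, against 4057, 3739.6, 3629, 4408 and 3914 in wild-type livers on that diet. On chow it measured 3126, 2689, 2436, 2770.3 and 2918 in knockout livers and 2462, 2331, 3474, 4039 and 3352 in wild-type livers. All 5 knockout livers on the VLF diet lay below every other liver, with wide overlap between the genotypes on chow. It was 3.48-fold lower in the knockout on the VLF diet (-1.80 ± 0.14, adjusted p = 7.4e-09). Its other 2 probe sets were also called lower, by -4.07 ± 0.31 (adjusted p = 8.6e-09) and -0.94 ± 0.11 (adjusted p = 1.04e-06), so the direction was shared and the size was not.

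Ebp, the sterol isomerase that precedes Sc5d, measured 2105, 1359, 1513, 1678 and 1538 in knockout livers on the VLF diet, against 2823, 3031, 3299.8, 3363 and 3078 in wild-type livers on that diet. It measured 2795, 2658, 3027, 3089 and 3073 in knockout livers on chow and 2658, 2851, 2736, 3214 and 3282 in wild-type livers on chow. Again the knockout livers on the VLF diet lay below the rest, and the chow groups were alike in range. Ebp was 1.92-fold lower in the knockout on the VLF diet (-0.94 ± 0.09, adjusted p = 2.58e-07).

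Fdft1, the squalene synthase at the first step toward sterols alone, measured 645, 666, 726, 611 and 811 in knockout livers on the VLF diet, against 979.8, 883, 827, 1141 and 1132 in wild-type livers on that diet. On chow it measured 1119, 800.2, 907, 913 and 858 in knockout livers and 906, 788, 1378, 1379 and 1096 in wild-type livers. The gap on the VLF diet was narrow, and the chow groups overlapped. The 1.43-fold fall (-0.52 ± 0.15, adjusted p = 0.00963) lost its call with median scaling alone (-0.35, adjusted p = 0.131) and with centring on the hybridization controls (-0.16, adjusted p = 0.631).

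The other 7 members from squalene to cholesterol were not called. Sqle, the squalene epoxidase, had a log2 difference of -0.15 (95% interval -0.93 to 0.62), Lss, the lanosterol synthase, of 0.10 (95% interval -0.35 to 0.56), and Cyp51, the lanosterol demethylase, of 0.03 (95% interval -0.58 to 0.63). Msmo1, Nsdhl and Hsd17b7 act in turn to strip methyl groups from the ring. Their differences were 0.17 (95% interval -0.49 to 0.84) for Msmo1, -0.51 (95% interval -0.98 to -0.04) for Nsdhl and 0.05 (95% interval -0.37 to 0.48) for Hsd17b7. Dhcr7, a reductase of the last steps, had -0.06 (95% interval -0.70 to 0.57). Wild-type VLF liver 4 was the highest of its group in each of these 7 genes. Over the 12 members not called, the estimates ran between -0.64 and 0.17.

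**Figure D2:**
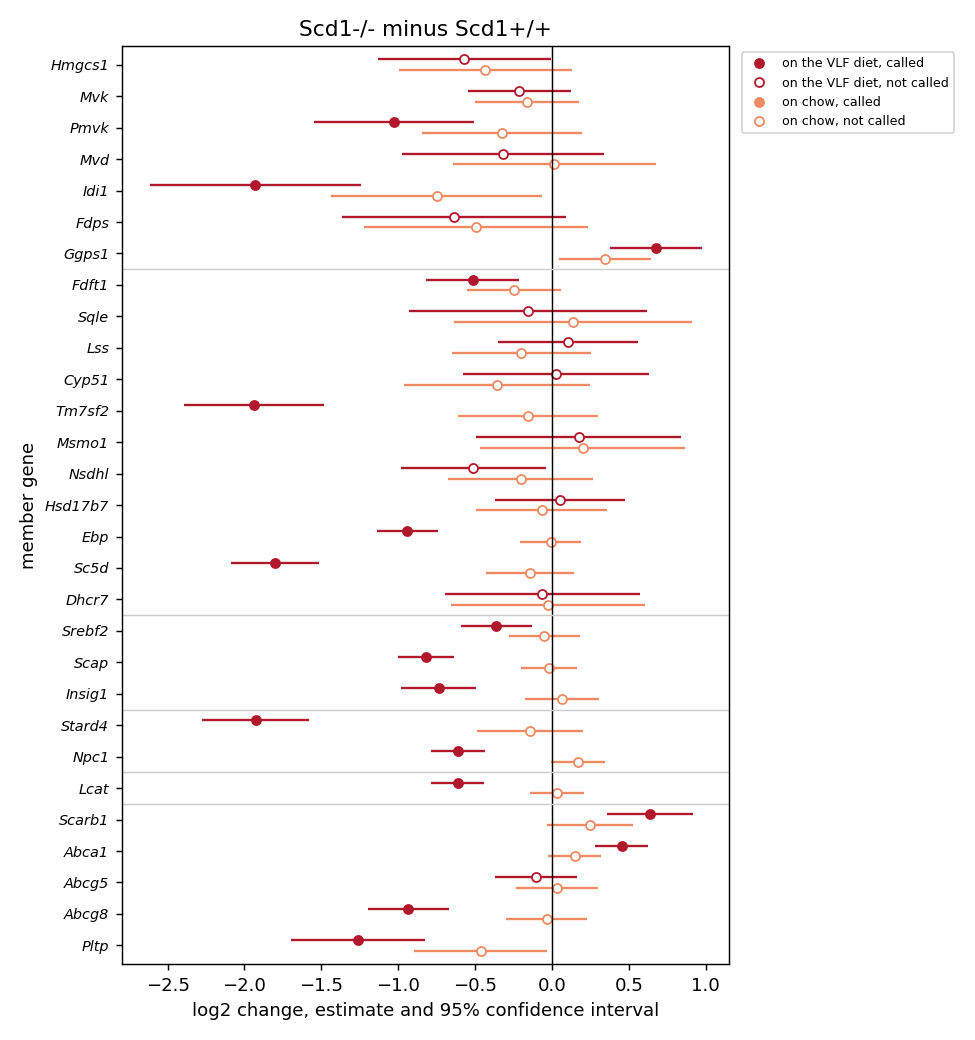
Log2 change of knockout minus wild type for each of the 29 members (points, with 95% confidence intervals), on the VLF diet (dark red) and on chow (orange), filled where called. On the VLF diet 17 points are filled, 14 of them left of 0, of which Srebf2 alone crosses to 0.02 with arrays centred on the hybridization controls, and on chow 0 are filled.

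All 3 measured genes of SREBP control were called lower on the VLF diet, beside 23% of all genes. Srebf2 was so in 1 of its 2 probe sets, and turned to 0.02 with arrays centred on the hybridization controls. Scap, the escort protein, measured 578, 612, 651, 714 and 719 in knockout livers on the VLF diet, against 1074, 1046, 1149.8, 1293 and 1205 in wild-type livers on that diet. It measured 1306, 1060.3, 1099, 1347 and 1361 in knockout livers on chow and 1185, 1141, 1300.1, 1206 and 1401 in wild-type livers on chow. Knockout livers on the VLF diet formed a separate low group. The fall was 1.76-fold (-0.82 ± 0.09, adjusted p = 4.63e-07), beside -0.02 ± 0.09 on chow.

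Insig1, the retention protein and itself a target of SREBPs, measured 627, 565, 644, 556 and 732 in knockout livers on the VLF diet, against 1003, 951, 989, 1211 and 1046 in wild-type livers on that diet. On chow it measured 974, 784, 1033, 824 and 899 in knockout livers and 783, 682, 857, 904 and 1125 in wild-type livers. Knockout and wild type were apart on the VLF diet and mixed on chow. Insig1 was 1.67-fold lower in the knockout on the VLF diet (-0.74 ± 0.11, adjusted p = 4.96e-05).

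Srebf2, which encodes SREBP2, measured 158, 163, 162, 166 and 171 in knockout livers on the VLF diet, against 213, 214, 232, 197 and 198 in wild-type livers on that diet. It measured 221, 192, 163, 214 and 242 in knockout livers on chow and 212, 179, 249.9, 258 and 174 in wild-type livers on chow. The knockout livers on the VLF diet were closer to each other than those of any other group. The fall of -0.36 ± 0.11 (adjusted p = 0.0154) was the smallest of those called (adjusted p = 1 with that centring). It was also not called with median scaling alone (adjusted p = 0.146) or with the mean of its probe sets (adjusted p = 0.0906). Its other probe set had -0.03 ± 0.12 and was not called.

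Both genes of sterol movement inside the cell fell on the VLF diet, beside 23% of all genes. Stard4, a soluble carrier that shuttles sterol between membranes, measured 213, 132, 245, 234 and 234 in knockout livers on the VLF diet, against 797, 854, 748, 786 and 751 in wild-type livers on that diet. It measured 746, 626, 407, 621 and 624 in knockout livers on chow and 594, 574, 723, 823 and 599 in wild-type livers on chow. Every knockout liver on the VLF diet was below every other liver, with liver 2 lowest. Stard4 was 3.8-fold lower (-1.93 ± 0.16, adjusted p = 3.33e-08), and its 3 probe sets gave falls between -1.93 and -1.69. Npc1, which lets cholesterol out of lysosomes, measured 339, 307, 402, 385 and 376 in knockout livers on the VLF diet, against 524, 511, 565, 607 and 547 in wild-type livers on that diet. On chow Npc1 measured 669, 652, 572, 652 and 665 in knockout livers and 560.2, 532, 669.9, 609 and 489 in wild-type livers. It was apart on the VLF diet only. The fall was 1.53-fold (-0.61 ± 0.08, adjusted p = 1.14e-05), not called with arrays centred on the hybridization controls (-0.22, adjusted p = 0.243).

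In esterification the measured member was Lcat, the plasma enzyme that liver secretes to esterify the cholesterol of HDL. It measured 1791, 2376, 2061, 2068 and 1897 in knockout livers on the VLF diet, against 2988, 3446, 3446, 2651 and 3058 in wild-type livers on that diet. It measured 3408, 3204, 3888, 3888 and 3573 in knockout livers on chow and 3739.6, 3466, 3691, 3228 and 3391 in wild-type livers on chow. Only the knockout livers on the VLF diet stood below the rest. Lcat was 1.53-fold lower in the knockout on the VLF diet (-0.61 ± 0.08, adjusted p = 9.63e-06).

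Uptake, export and transfer genes split on the VLF diet, with 2 of 5 higher, 2 lower and 1 not called. Of all genes 19.2% were higher and 23% lower. Scarb1, the HDL receptor for selective uptake, measured 1709, 2692, 1932, 1728 and 1519.9 in knockout livers on the VLF diet, against 1169.7, 1444, 1205, 991 and 1262 in wild-type livers on that diet. It measured 1393, 1293, 1500.5, 1494 and 1482 in knockout livers on chow and 1091, 1491, 1178, 1027 and 1286 in wild-type livers on chow. All knockout livers on the VLF diet were above all wild-type livers on it, liver 2 by the widest margin. Scarb1 was 1.56-fold higher (0.64 ± 0.13, adjusted p = 0.000853), and its other 2 probe sets were called higher too. Abca1, which loads cholesterol onto apolipoprotein A-I, measured 1670.3, 1978, 1883, 2021 and 1729 in knockout livers on the VLF diet, against 1241, 1629, 1212, 1344 and 1363 in wild-type livers on that diet. On chow Abca1 measured 1278, 1274, 1468, 1516 and 1451 in knockout livers and 1264, 1359.8, 1338, 1115 and 1224 in wild-type livers. The VLF groups did not overlap and the chow groups did. The rise was 1.37-fold (0.46 ± 0.08, adjusted p = 0.00022), whereas of its other 2 probe sets 1 was called higher (0.53 ± 0.15) and 1 was not called (-0.08 ± 0.14).

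Abcg5 and Abcg8 form a single sterol pump of the canalicular membrane, and Abcg8 alone was called, though the difference between the 2 genes was not tested. Abcg8 measured 296, 493, 317, 352 and 298 in knockout livers on the VLF diet, against 664, 636, 734, 611 and 654 in wild-type livers on that diet. It measured 678, 731, 636, 542 and 471 in knockout livers on chow and 607, 647, 595, 635 and 612 in wild-type livers on chow. On the VLF diet its knockout livers were all below the wild-type livers. It was 1.91-fold lower (-0.94 ± 0.13, adjusted p = 9.09e-06). Abcg5 measured 735, 1394, 770.1, 830.1 and 845 in knockout livers on the VLF diet, against 872, 1012, 992, 915 and 993 in wild-type livers on that diet. Knockout liver 2 was far above its group, and the other 4 lay below every wild-type liver. Abcg5 had a log2 difference of -0.10 (95% interval -0.37 to 0.16) and was not called (adjusted p = 0.668). Without that liver and wild-type VLF liver 4 it was called lower (-0.28, adjusted p = 0.00712).

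The signal of Abcg8 relative to Abcg5 within a liver, given as a description, was 0.389 ± 0.034 in knockout livers on the VLF diet, 0.691 ± 0.057 in wild-type livers on that diet, 0.700 ± 0.064 in knockout livers on chow and 0.733 ± 0.057 in wild-type livers on chow (mean ± SD, n = 5 each). Knockout VLF liver 2, highest of its group in both genes, had a ratio of 0.354, within the range of its group. These ratios show unequal change of the probe sets and give no relative amount of the transcripts.

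Pltp, which moves phospholipid between lipoproteins, was the member called by diet in wild type. It measured 981, 812, 551, 772 and 682 in knockout livers on the VLF diet, against 2289, 1860.2, 1078, 2195 and 1816 in wild-type livers on that diet. It measured 499.8, 491, 680.3, 529 and 596 in knockout livers on chow and 692, 590.3, 1124, 905 and 629.8 in wild-type livers on chow. Wild-type livers on the VLF diet were the highest, with liver 3 the lowest of them and within the chow range. Pltp was 2.4-fold lower in the knockout on the VLF diet (-1.26 ± 0.21, adjusted p = 8.47e-05). Within wild type it was 2.34-fold higher on the VLF diet than on chow (1.23 ± 0.21, adjusted p = 0.00576). That call ended when only the compared groups were fitted (adjusted p = 0.0538) and with the actin covariate (0.93, adjusted p = 0.582). In the knockout the diet difference of 0.43 ± 0.21 was not called (adjusted p = 0.155).

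On chow, 0 of 29 members were called between the genotypes (limma), beside 2.94% of all genes (1.23% higher and 1.7% lower). At unadjusted p under 0.05 there were 3, Idi1, Ggps1 and Pltp, and the smallest adjusted p was 0.164. Estimates ran between -0.75 and 0.34, with a median of -0.05 against 0 over all genes. That median was -0.16 to -0.02 when single livers were left out (lowest without wild-type chow liver 2, highest without wild-type chow liver 4), 0.15 with median scaling alone and -0.36 with the actin covariate, so it had no settled sign. In 27 of the 29 members the 95% interval stayed within a log2 change of 1 either way. Idi1 was the only member whose genotypes did not overlap on chow (lower, beside 3.67% of all genes). Median scaling alone called Npc1 higher on chow (0.41, adjusted p = 0.0308), and the mean of probe sets called Abca1 higher (0.36, adjusted p = 0.0484).

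Many of these genes also differed by diet within the knockout. On the VLF diet against chow, 15 of 29 members were called in knockout livers, beside 34.8% of all genes. Lower were 12 (17.7% of all genes): all the members that were lower by genotype on the VLF diet other than Pmvk and Pltp. Higher were 3 (17.1% of all genes), again Ggps1, Scarb1 and Abca1. The comparison shares its knockout VLF livers with the genotype comparison, so it is no independent repeat. The largest falls were those of Stard4 (-1.52 ± 0.16, adjusted p = 7.01e-07), Tm7sf2 (-1.47 ± 0.22, adjusted p = 2.94e-05), Idi1 (-1.40 ± 0.33, adjusted p = 0.00269) and Sc5d (-1.30 ± 0.14, adjusted p = 5.05e-07). Groups did not overlap in 9 members that fell (13% of all genes) and in 3 that had every VLF liver higher (12.2%).

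The split of the knockout's diet response moved with scaling: 8 members were higher and 8 lower with arrays centred on the hybridization controls, where the median of all genes moved to 0.27 and 37.4% of all genes were called higher and 4.79% lower. The call of Fdft1 (-0.41 ± 0.15) ended when any of 10 single livers was left out, 8 of them knockout livers, with adjusted p up to 0.126. Srebf2 (-0.32 ± 0.11) turned to 0.09 with centring on the hybridization controls, and its call ended without any of 7 single knockout livers (adjusted p up to 0.11) and with the actin covariate (adjusted p = 0.0866). Scarb1 (0.39 ± 0.13, adjusted p = 0.033) was not called without knockout VLF liver 2 (0.26, adjusted p = 0.0878), without knockout VLF liver 3 (adjusted p = 0.0647), or without knockout chow liver 1 (adjusted p = 0.0636) or 2 (adjusted p = 0.0814). Without knockout VLF liver 2 and wild-type VLF liver 4, 10 members were lower and 4 higher (18.6% and 17.2% of all genes).

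In wild type 1 of 29 members was called by diet, Pltp, beside 1.58% of all genes (0.797% higher and 0.781% lower). Sc5d (0.36 ± 0.14, adjusted p = 0.255) and Mvd (0.82 ± 0.31, adjusted p = 0.272), the next in order, were not called. Tm7sf2 was higher in every VLF liver than in every chow liver of wild type (beside 1.85% of all genes), yet its difference of 0.31 ± 0.22 was not called (adjusted p = 0.706). At unadjusted p under 0.05 there were 6 members.

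**Figure D3:**
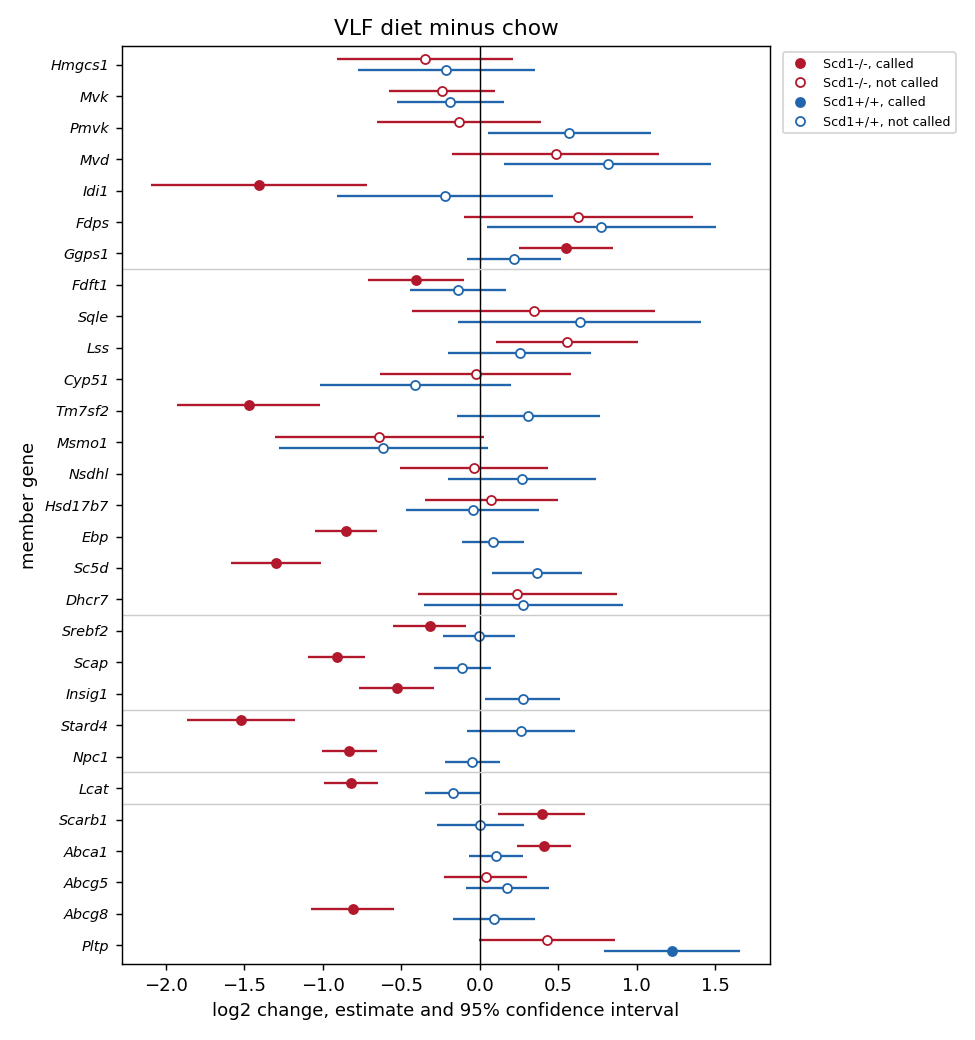
Log2 change of the VLF diet minus chow for each of the 29 members (points, with 95% confidence intervals), in knockout (dark red) and wild-type livers (blue), filled where called. In the knockout 15 points are filled, 12 of them left of 0, with Srebf2 at 0.09 instead when arrays were centred on the hybridization controls, and in wild type 1 is filled, Pltp.

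Whether the genotype effect itself differed between diets was tested by the interaction, the genotype difference on the VLF diet minus that on chow. It was called for 9 of 29 members, beside 24.2% of all genes, and all 9 were negative (12.1% of all genes were called so). Without knockout VLF liver 2 and wild-type VLF liver 4 there were 10, all lower (24.5% of all genes were called and 12% were lower). With arrays centred on the hybridization controls 4 were lower and 1 higher (3.4% and 21.8% of all genes). Stard4 (-1.78 ± 0.23, adjusted p = 1.66e-05), Tm7sf2 (-1.78 ± 0.31, adjusted p = 0.000297) and Sc5d (-1.66 ± 0.19, adjusted p = 4.57e-06) had the largest differences. Ebp (-0.93 ± 0.13, adjusted p = 4.36e-05), Abcg8 (-0.90 ± 0.18, adjusted p = 0.00105) and Insig1 (-0.80 ± 0.16, adjusted p = 0.00132) followed. Scap (-0.80 ± 0.12, adjusted p = 8.41e-05), Npc1 (-0.78 ± 0.12, adjusted p = 7.86e-05) and Lcat (-0.65 ± 0.12, adjusted p = 0.00047) completed the 9.

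The interaction was not called for the mevalonate enzymes. Idi1, which had nearly the same fall as Tm7sf2 on the VLF diet, had -1.18 ± 0.46 (adjusted p = 0.0937), and passed without knockout VLF liver 5 (-1.39, adjusted p = 0.0393) or wild-type chow liver 3 (-1.36, adjusted p = 0.0498). Abca1 (0.31 ± 0.12, adjusted p = 0.0796) and Scarb1 (0.39 ± 0.19, adjusted p = 0.192) were positive and not called. Pltp had -0.80 ± 0.29 (adjusted p = 0.0697), and passed without knockout VLF liver 1 (-0.90, adjusted p = 0.0426), without wild-type VLF liver 3 (-0.98, adjusted p = 0.00969) or without wild-type chow liver 3 (-0.94, adjusted p = 0.0248).

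**Figure D4:**
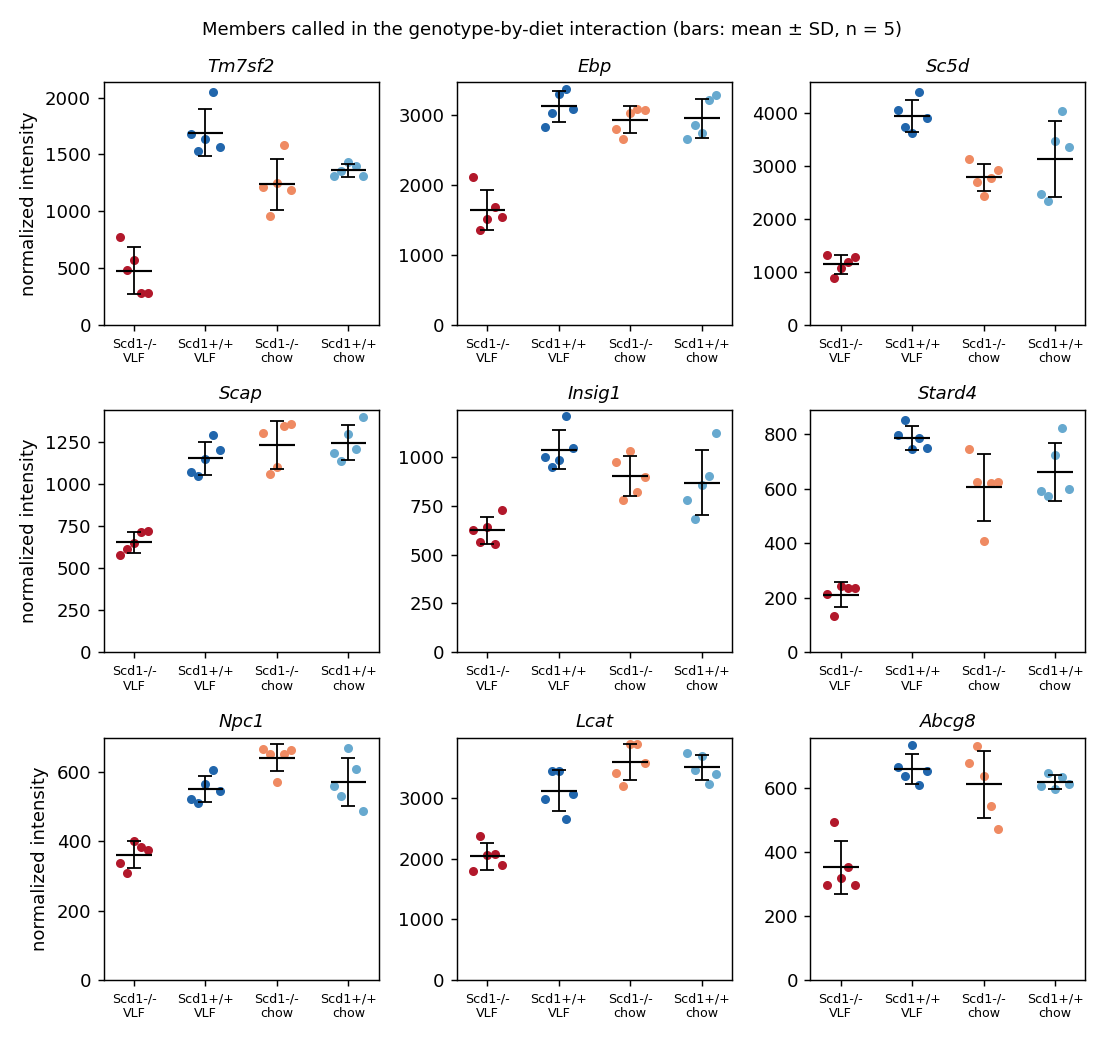
Normalized intensity of the 9 members called in the interaction, for each of 5 livers per group (points) with the mean and SD (bars), each panel on its own axis from 0. In each panel the knockout livers on the VLF diet lie below the wild-type livers on that diet.

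Livers of a group differed from one another in the mean level of the synthesis enzymes. The mean centred log2 level of the 18 measured enzymes, each enzyme centred over the 20 livers, was -0.09, -0.73, -0.12, -0.39 and -0.09 in knockout livers 1 to 5 on the VLF diet. It was 0.27, 0.01, -0.04, 0.80 and 0.20 in wild-type livers on that diet. On chow it was 0.12, -0.44, -0.01, 0.04 and -0.02 in knockout livers and -0.25, -0.40, 0.49, 0.61 and 0.04 in wild-type livers. This mean thus differed between livers of the same group by amounts as large as the group differences of many enzymes. It does not show that the enzymes moved alike. Among knockout livers on the VLF diet, liver 1 was the highest for 7 of 18 enzymes and liver 5 for 8. Hmgcs1 was highest and Tm7sf2 lowest in that liver 5. Knockout chow liver 2 was the lowest of its group for 15 of 18 enzymes and wild-type chow liver 4 the highest for 12 of 18. Per gene, the SD over livers on the log2 scale had a median of 0.31 in knockout and 0.23 in wild-type livers on the VLF diet, and 0.22 in knockout and 0.34 in wild-type livers on chow.

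**Figure D5:**
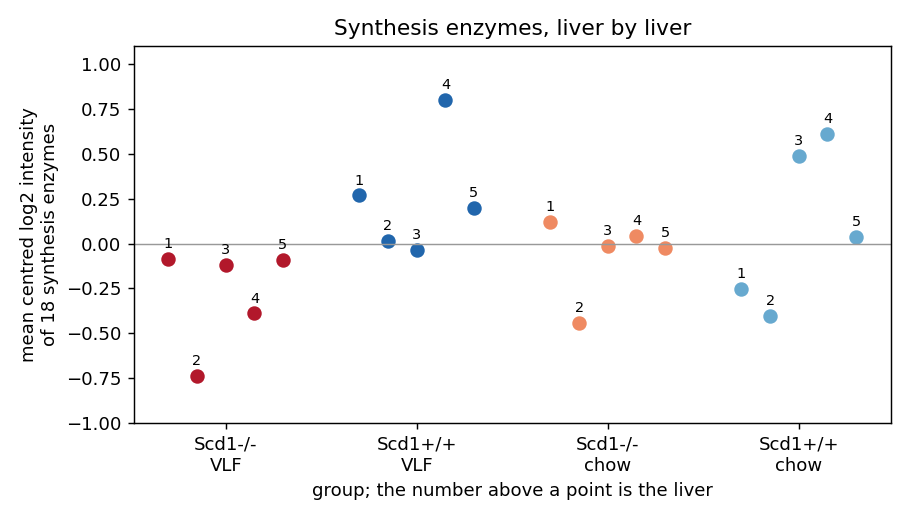
Mean centred log2 intensity of the 18 measured synthesis enzymes in each liver (point, numbered by replicate), by group. Wild-type VLF liver 4 is highest at 0.80 and knockout VLF liver 2 lowest at -0.73, and the 2 chow groups overlap.

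Other genes of the pathway were followed in 4 lists, against which stand the 23% of all genes lower and 19.2% higher in this comparison. Of 8 measured sterol sensing genes 4 fell and 1 rose in the knockout on the VLF diet. Rnf145, an endoplasmic reticulum ubiquitin ligase, averaged 144 ± 9.56 in knockout and 370.5 ± 56.1 in wild-type livers (-1.35 ± 0.10, adjusted p = 4.69e-09). Mbtps2, the protease that releases SREBPs in the Golgi, averaged 149 ± 17.1 in knockout and 78.0 ± 18.5 in wild-type livers (0.95 ± 0.15, adjusted p = 6.91e-05), opposite to Scap. The ubiquitination factor genes Aup1 (-0.35 ± 0.07, adjusted p = 0.000539) and Rnf139 (-0.20 ± 0.06, adjusted p = 0.0124) fell less. Mbtps1 (-0.14 ± 0.05), named after its value was seen, made the fourth fall.

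Of 14 sterol transfer and ester hydrolysis genes 4 fell and 1 rose, with the share that fell near that of all genes (23%). Scp2, a carrier of sterols and other lipids, averaged 5369 ± 306 in knockout and 9797 ± 536 in wild-type livers (-0.87 ± 0.05, adjusted p = 5.12e-10). Stard5 (-0.91 ± 0.13, adjusted p = 1.85e-05) and Osbpl1a (-0.61 ± 0.08, adjusted p = 5.04e-06), both of sterol-binding families, fell, as did Lipa, the lysosomal acid lipase (-0.42 ± 0.10, adjusted p = 0.00303). Npc2, the lysosomal partner of Npc1, rose by 0.19 ± 0.07 (adjusted p = 0.0469), opposite to Npc1. It was named after its value was seen.

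Of 7 measured LXR, HDL and lipoprotein genes 3 fell and 2 rose. Nr1h3, which encodes LXR alpha, averaged 259 ± 26.0 in knockout and 435 ± 37.6 in wild-type livers (-0.75 ± 0.07, adjusted p = 2.2e-07). Lipg, the endothelial lipase, fell the most of this list (-1.84 ± 0.33, adjusted p = 0.000192), and the receptor gene Lrp1 fell too (-0.52 ± 0.08, adjusted p = 5.91e-05). Abcg1, an exporter to HDL, rose like Abca1 (0.45 ± 0.09, adjusted p = 0.000594). Mylip, named after its value was seen, also rose (0.30 ± 0.10, adjusted p = 0.0252). Of 7 measured genes of the non-sterol branches 2 rose and 1 fell: Pggt1b (0.54 ± 0.12, adjusted p = 0.00131), a subunit of the geranylgeranyl transferase, and Nus1 (0.45 ± 0.13, adjusted p = 0.0118), of dolichol synthesis, rose, and the farnesyl transferase subunit Fnta (-0.35 ± 0.08, adjusted p = 0.00105) fell.

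Markers of some other liver cell types differed with the same groups. On the VLF diet 23% of all genes were called lower in knockout livers. All 10 macrophage and Kupffer cell markers were higher in the knockout on the VLF diet (19.2% of all genes), with summed signals of 17121 to 24128 in knockout and 5220 to 6107 in wild-type livers on that diet, and of 6189 to 9024 in knockout and 6369 to 7157 in wild-type livers on chow. None of the 10 lay at the floor. Of 8 stellate cell markers 6 were higher and 1 lower (sums of 4802 to 6183 in knockout and 2434 to 3029 in wild-type livers on the VLF diet). Of 6 sinusoidal endothelial markers 1 was higher and 3 lower, with overlapping sums (1667 to 2575 in knockout and 1848 to 2264 in wild-type livers). Of 5 cholangiocyte markers 2 were higher (349 to 447 in knockout and 274 to 325 in wild-type livers). Of 7 hepatocyte markers 2 were lower, and of 4 steroid-making and gut markers 1 was lower, both shares near the 23% of all genes. Fabp6 lay at the floor in every liver. The part of these cell types in the results was not tested.

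A sign of RNA and labelling quality differed with the groups as well. The actin control's 3′ to 5′ signal ratio was 1.82 ± 0.11 in knockout and 2.19 ± 0.20 in wild-type livers on the VLF diet, and 2.25 ± 0.12 in knockout and 2.70 ± 0.24 in wild-type livers on chow (mean ± SD, n = 5 each). The difference of -0.362 on the VLF diet had a two-sided exact permutation p of 0.0159. By the same test p was 0.00794 by genotype on chow, by diet in the knockout and by diet in wild type. With the log2 of this ratio as a covariate limma called 17 members by genotype on the VLF diet. These were 15 lower and 2 higher, beside 12.4% and 13.7% of all genes. That fit called 9 in the interaction (24.3% of all genes), and 10 between diets in the knockout, all lower (10.9% of all genes). The members' median then was -0.72 by genotype on the VLF diet and -0.36 on chow, -0.56 by diet in the knockout and -0.12 in wild type.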

How the data were processed

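RNA of 20 individual livers was measured on Mouse 430 2.0 arrays. The deposited values are intensities on a linear scale, judged from the numbers; the submitters' processing notes list MAS5 and RMA, and the sources used here do not say which made the values. Each array was brought to a common median, values under 16 were raised to 16, and log2 values were quantile-normalized, so every log2 value was computed here from the deposited intensity. Of 45101 probe sets 64 controls were removed. The 9083 at the floor on all arrays entered the adjustment with a p of 1. A mean per group was fitted with limma 3.58.1 in R 4.3.3 (16 residual and 1.96 prior degrees of freedom), its eBayes step, and Benjamini-Hochberg adjusted p-values over 45037 probe sets. A call is an adjusted p under 0.05. P-values measure the spread between individual livers, 5 per group per the series design, and the number of arrays limits precision.

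The probe table named 1 gene for 34945 probe sets, several for 932 and none for 9160. Members, lists and tests were chosen with earlier results of these data known. Values of every liver are given for members called in the interaction or, up to 4 per role by adjusted p, by genotype on the VLF diet. Up to 4 called genes per list of other pathway genes are named by the same order, and further ones are marked. Alternatives changed the floor, scaling, probe set rule, filter, samples fitted, variance model, replicate block and actin covariate, and left out each liver. Figures used Python 3.11.15 and matplotlib 3.10.9.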

Additional observations from a re-analysis of the deposited data

Results flagged for a closer look

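In 8 of 116 sets of 5 livers tested (29 members in 4 groups), the highest or lowest liver stood apart from the other 4, its gap to the nearest taking more than 0.71 of the range. Chance alone gives about 1 in 20. Wild-type VLF liver 4 stood high in Fdps (3383, the others 1136 to 1711), Msmo1 (784, the others 467 to 512) and Nsdhl (1545, the others 724 to 879). Knockout VLF liver 2 stood high in Abcg5 (1394, the others 735 to 845) and Abcg8 (493, the others 296 to 352) and low in Stard4 (132, the others 213 to 245). Knockout chow liver 3 stood low in Npc1 (572, the others 652 to 669), and wild-type chow liver 5 stood high in Abcg5 (954, the others 796 to 838).

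The genotype effect differed between the VLF diet and chow in 9 members, by limma's interaction term on the log2 scale. The difference was -1.78 for Tm7sf2 (-1.94 on the VLF diet and -0.16 on chow), -0.93 for Ebp (-0.94 and -0.01), -1.66 for Sc5d (-1.80 and -0.14), -0.80 for Scap (-0.82 and -0.02) and -0.80 for Insig1 (-0.74 and 0.07). It was -1.78 for Stard4 (-1.93 on the VLF diet and -0.14 on chow), -0.78 for Npc1 (-0.61 and 0.17), -0.65 for Lcat (-0.61 and 0.03) and -0.90 for Abcg8 (-0.94 and -0.03).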

How the results depend on the processing

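Of the 17 members called by genotype on the VLF diet, 12 kept their call under every alternative run; so did 8 of 15 for the diet in the knockout, 4 of 9 in the interaction (Tm7sf2, Ebp, Sc5d and Stard4) and 0 of 1 for the diet in wild type. Centring on the hybridization controls reversed Srebf2 (0.0194 by genotype on the VLF diet, 0.0937 by diet in the knockout) and gave 8 members higher by diet in the knockout and 5 called in the interaction (4 lower, 1 higher); the cause was not tested. On chow, median scaling alone and the mean of probe sets each called 1 member, higher. By diet in the knockout the mean of probe sets left 1 member higher and the actin covariate 0. By diet in wild type the fit of only the compared groups and the actin covariate left 0 called and 0 higher. The interaction held 1 member called higher, Abca1, with only brighter probe sets and with array weights. Leaving out each liver gave 17 to 18 called by genotype on the VLF diet (3 higher, 14 to 15 lower), 0 on chow, 12 to 16 by diet in the knockout (2 to 4 higher, 10 to 12 lower), 1 in wild type, and 9 to 11 in the interaction (0 to 1 higher, 9 to 11 lower). Without wild-type VLF liver 2 or wild-type chow liver 4, Abca1 was the member called higher there. The actin ratio difference stayed between -0.422 and -0.312. With the replicate number as a block, limma called 19 members by genotype on the VLF diet, adding Hmgcs1 (adjusted p = 0.0494) and Nsdhl (adjusted p = 0.0378), and Srebf2 was not called by diet in the knockout (adjusted p = 0.0637). The numbers gave no clear pairing of the livers. The median correlation of deviations was -0.016 in same-numbered and -0.010 in other-numbered pairs. Of 30 same-numbered pairs 6 correlated above 0.1, and 2 of 20 arrays were closest to their own number. Leaving out knockout VLF liver 2 with wild-type VLF liver 4 was chosen after seeing the data. None of the members' brightest probe sets lay at the floor in any liver, but the floor measures no background, and dim members such as Ggps1 have less certain values.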
